A study of Mus musculus with 366 samples.

Results

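Cell cycle and proliferation genes were followed in the aortas of 101 hybrid mouse strains on a Western diet. The 35 genes were chosen by symbol, and 34 of them had a probe set on the array, out of 17097 genes with a probe set of a single symbol. Ccnb1 had none and is not described further. Each gene was represented by the probe set with the highest mean level over all arrays, a rule that used no difference between strains. Of the 34 genes, 13 had 1 probe set and 21 had 2 or more, with 63 probe sets in all.

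The animals were female F1 mice, each from a cross between 1 strain of the Hybrid Mouse Diversity Panel, a collection of inbred and recombinant inbred mouse strains, and C57BL/6J mice that carried 2 human transgenes. These were APOE-Leiden, a form of apolipoprotein E that slows lipoprotein clearance, and CETP, the cholesteryl ester transfer protein that mice lack. All 366 animals carried both transgenes, so no group was free of them, and every strain shared 1 parental C57BL/6J genome. They were 24 weeks old, after 8 weeks on chow and 16 weeks on the Western diet. RNA came from the aorta between its arch and the middle of the abdomen, taken whole and cleaned of the adipose tissue around it. There was 1 array per mouse, with 1 to 8 arrays per strain (median 4). The strains fell into 31 classical inbred strains (122 arrays), 36 BXD strains (124 arrays), 21 AXB/BXA strains (73 arrays), 9 CXB strains (32 arrays) and 4 BXH strains (15 arrays), the last 4 sets being recombinant inbred lines derived from C57BL/6J and DBA/2J, A/J, BALB/c or C3H/HeJ. In such bulk tissue, fewer dividing cells and less cell cycle RNA per cell cannot be told apart.

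A cell that divides passes from G1, where cyclin D and E2F proteins open the way to DNA synthesis, through S phase, where the MCM helicase and PCNA copy the genome, to mitosis, which is run by cyclin B with CDK1, the Aurora and Polo kinases, the spindle checkpoint and the anaphase-promoting complex. Most mitotic genes are transcribed mainly in cycling cells, and Mki67, the Ki-67 antigen, is the usual marker of such cells in tissue. In atherosclerotic arteries, macrophages and smooth muscle cells of the intima are the cells best known to proliferate.

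Values are log2 intensities, and the median of all probe set means was 3.28. The arrays had medians between 3.166 and 3.394. No arrays were identical, and pairs correlated between 0.945 and 0.9962 within a strain and between 0.928 and 0.9946 in different strains. Smooth muscle Acta2 lay between 8.37 and 13.00, endothelial Pecam1 between 5.81 and 8.49 and fibroblast Dcn between 11.09 and 12.37 on every array. Adipocyte genes were high on every array too. Ucp1 had a mean of 12.92 (lowest array 12.33), Cidea 12.66 (12.23) and Adipoq 12.45 (11.73). A level near the floor of the array was gauged from 42 probe sets of olfactory receptors, genes that an aorta hardly uses, whose means ran from 2.29 to 3.63 with a median of 2.55 and a 95th percentile of 3.05. Some arrays were high in genes of other tissues. Of these, 23 were high in a stratified epithelium list of 8 genes, 32 in a hepatocyte list and 3 in a B cell list, high meaning above the median by over 5 median absolute deviations. No array passed that mark in a skeletal muscle list, whose means spread widely, from 3.05 to 12.29 with a median of 5.43. For that list the mark could not set muscle-rich arrays apart, so such arrays were kept, A/J replicate 2 at 12.14 among them. In at least 1 of these 4 lists 54 arrays passed the mark, and the main counts below are given with and without those 54. Adipocyte genes were not among these 4 lists.

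Most of the mitotic genes were measured close to the floor. Only 12 of the 34 members had a mean above the median of all probe sets, and 16 had a mean above the olfactory receptor 95th percentile. Pcna, the sliding clamp of DNA polymerase, was the highest at 9.12 (lowest array 8.57, median 9.11, highest 9.63). Ccnd1, which encodes the G1 cyclin D1, followed at 6.98 (5.43, 6.98 and 8.12). Subunits of the replicative helicase came next, Mcm7 at 5.62, Mcm6 at 5.57 and Mcm4 at 5.14, together with the centromeric histone Cenpa at 5.51 and the thymidylate synthase Tyms at 5.46. The proliferation marker Mki67 had a mean of 3.41, with a median array of 3.25 and a highest array of 7.27, and 285 of the 366 arrays lay above the olfactory receptor 95th percentile. Topoisomerase Top2a had a mean of 3.04 (2.34, 2.96 and 6.74), and 137 arrays lay above that percentile. At the bottom were the Aurora kinase Aurkb at 2.54, the spindle motor Kif11 at 2.57 and the checkpoint kinase Bub1 at 2.60, with 9, 1 and 6 arrays above it. These levels are of single probe sets and set no order between genes.

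**Figure D1:**
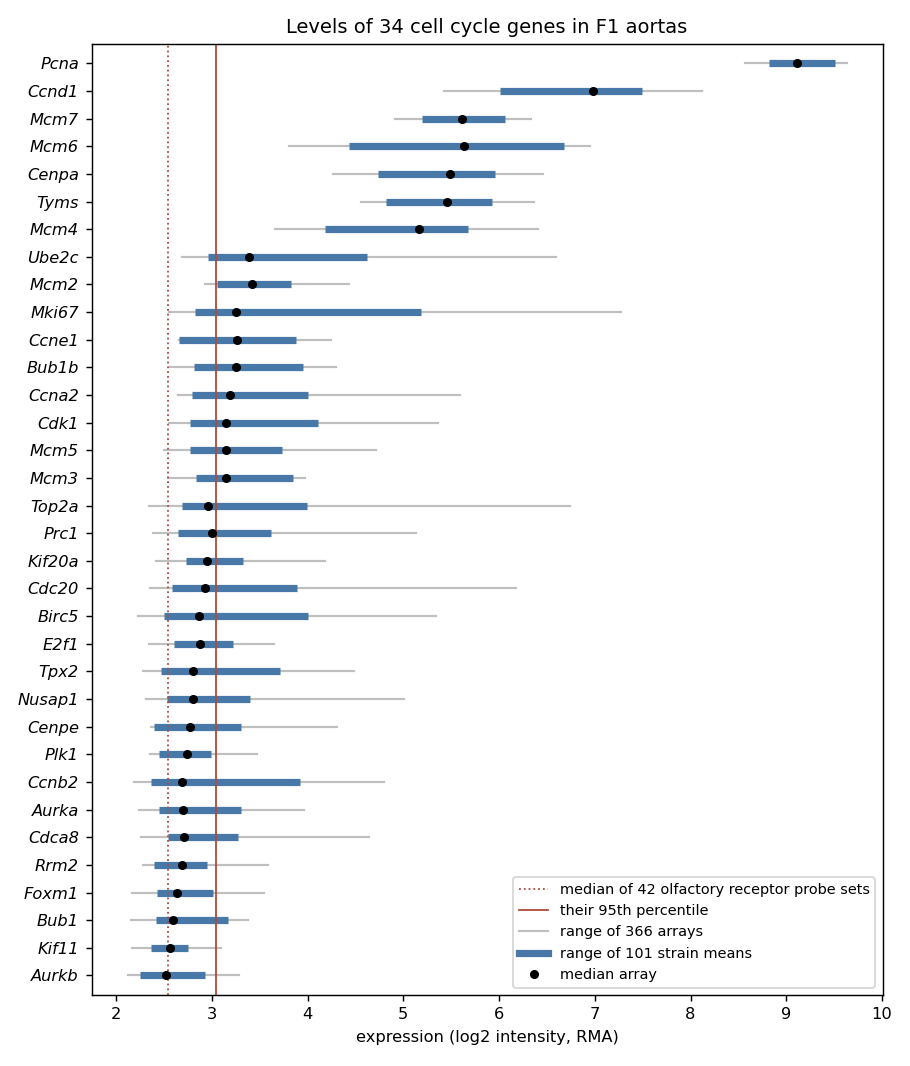
Level (log2 intensity) of each of the 34 members over the 366 arrays, as the median array (point), the range of strain means (thick bar) and the range of arrays (thin line), with the median and 95th percentile of the olfactory receptor probe sets as vertical lines. Pcna (mean 9.12) and Ccnd1 (6.98) lie far above these, whereas most mitotic members sit near them with a tail of a few high arrays, as for Mki67 (median 3.25, highest 7.27).

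The first question was whether the members differed between strains. An F test over the 95 strains with at least 2 arrays (limma, Benjamini-Hochberg adjustment over all 45037 probe sets) called 22 of the 34 members, against 77.0% of all probe sets. Without the 54 arrays high in another tissue it called 15, against 69.8%, and with the means of 6 marker lists (hepatocyte, skeletal muscle, stratified epithelium, adipocyte, B cell and T cell) as covariates 16, against 75.2%. All 12 members with a mean above the median of all probe sets were called, and so were 21490 of all 22518 probe sets above it. Of the 16 members above the olfactory receptor 95th percentile 14 were called, but only 8 of the 18 at or below it. The share of all probe sets called on either side of that percentile is not given here. The share of variance that lay between strains had a median of 10.6% over the members and 17.9% over all probe sets. Among probe sets above the median level these figures were 20.4% for the 12 members and 29.4% for all. Both medians of the members lay below those of all probe sets, which is a description and not a test.

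Mcm6 and Pcna, of the replication machinery, differed most between strains. Mcm6 had 53.2% of its variance between strains (F = 5.36, adjusted p = 7.56e-26) and strain means from 4.43 in LP/J to 6.68 in LG/J. The 4 LG/J arrays read 6.56, 6.82, 6.94 and 6.40, and the 4 LP/J arrays 4.40, 3.83, 4.67 and 4.83. No LP/J array came near any LG/J array. Pcna had 37.9% (F = 3.28, adjusted p = 1.51e-13), with strain means over a narrow range from 8.82 in BXD22/TyJ to 9.51 in LG/J. Mcm4 had 22.7% and Tyms 24.9%, while Mcm3 and the ribonucleotide reductase subunit Rrm2 did not pass the test (adjusted p = 0.137 and 0.0781). Ccnd1 had 27.6% (adjusted p = 2.26e-08), from 6.01 in the single CXB11/HiAJ array to 7.49 in AXB10/PgnJ. Of the other G1/S regulators, the cyclin gene Ccne1 was called at 12.5% and the transcription factor E2f1 missed at 8.03% (adjusted p = 0.0518).

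Mitotic genes varied mostly between mice of the same strain, as did most probe sets, whose median share between strains was 17.9%. Most mitotic members lay close to the floor, and the part of measurement noise in that spread was not tested. Mki67 had 10.3% of its variance between strains (F = 1.45, adjusted p = 0.0161) and a within-strain SD of 0.569, the largest of any member. The call was lost in some subsets: the adjusted p was 0.215 without the 54 arrays high in another tissue and 0.0902 without the 6 arrays highest in Mki67. With only the strains of at least 3 arrays it was 0.0695. These subsets hold fewer arrays, and the second was chosen on the tested values. With the means of 6 marker lists as covariates Mki67 was still called. Top2a had 4.33% and was not called (adjusted p = 0.171). Cdk1, the kinase that drives entry into mitosis, had 17.4% (adjusted p = 0.000225) and was called in the first and the second of those subsets (0.0167 and 0.000274). Ube2c, the ubiquitin-conjugating enzyme of the anaphase-promoting complex, had 13.8% (adjusted p = 0.00231), and its activator Cdc20 had 12.2%. The highest share among mitotic members was 30.3% for Bub1b, which encodes the checkpoint protein BubR1 (adjusted p = 1.33e-09). The midzone protein gene Prc1 and the Polo kinase gene Plk1 had estimates below 0, at -2.47% and -1.52%, and the kinesin gene Kif20a had 1.76%. In all, 1 of the 5 spindle motors and assembly factors passed the F test, 4 of the 5 mitotic kinases and checkpoint genes did, and 6 of the 7 replication factors did.

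Strains were then compared one by one with the mean of the other strains. Of 3230 member and strain pairs, 86 were called, 56 higher (1.73% of pairs, against 2.29% over all probe sets) and 30 lower (0.929%, against 1.82%). They came from 31 members and 40 strains. NOD/ShiLtJ had the most, with 10 members higher, followed by AXB5/PgnJ and C58/J with 9 higher each, CXB8/HiAJ with 3 higher and 2 lower, and BXA7/PgnJ with 4 higher. The share of all probe sets called in each single strain is not given here. These counts therefore do not show that the members differed more than other genes of the same strain. Without the 54 arrays high in another tissue, 74 of the 86 pairs could still be tested and 37 of them were called.

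In the 3 strains with the most calls, the arrays of a strain differed widely in Mki67. Mki67 stood 1.79 (SE 0.401) above the other strains in NOD/ShiLtJ, with an adjusted p of 0.00135, on arrays of 4.29 and 6.07. In AXB5/PgnJ it stood 1.27 (SE 0.284) above them, with an adjusted p of 0.0014, on arrays of 6.19, 3.20, 4.15 and 5.11. The 4 C58/J arrays read 3.28, 2.84, 7.27 and 3.65. Each of the 3 strains had at least 1 array below 4.50, the 95th percentile of all arrays, and C58/J had a single high one. In C58/J the calls were for mitotic genes, Ube2c at 1.00 (SE 0.236), Top2a at 0.96 (SE 0.233) and Cdc20 at 0.93 (SE 0.155) above the other strains, with adjusted p from 2.55e-06 to 0.00424. The high array in NOD/ShiLtJ, the 2 highest in AXB5/PgnJ and the high array in C58/J read 9.71, 9.16, 8.77 and 10.15 in the mean of the epithelium list, whose median over all arrays was 3.26. Both NOD/ShiLtJ arrays were among the 54 high in another tissue, replicate 1 with a hepatocyte list mean of 7.15 against a median of 3.09, so the strain could not be tested without them. AXB5/PgnJ and C58/J then kept 2 of their 4 arrays each, and none of their 9 calls each remained, with differences that ran from -0.12 to 0.35 in AXB5/PgnJ and from -0.22 to 0.40 in C58/J. BXA7/PgnJ kept 2 of its 5 arrays and none of its 4 calls, though the differences were close to those before for Bub1b (0.55 before and 0.48 after), Tyms (0.48 and 0.42) and Plk1 (0.24 and 0.18) and lower for Cdk1 (0.49 and 0.27).

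Other strains carried calls that were made again without the 54 arrays, which were not chosen by smooth muscle, endothelial or adipocyte genes. In CXB8/HiAJ, Ccne1 was higher by 0.60 (SE 0.115, adjusted p = 8.64e-05), Mcm7 by 0.44 and Pcna by 0.25, while Mcm6 was lower by -0.74 and Ccnd1 by -0.67, and all 5 were called again without the 54 arrays. BXD75/RwwJ was lower in Mcm4 by -0.96 (SE 0.158, adjusted p = 2.04e-06) and higher in the spindle assembly factor gene Tpx2 by 0.72 and in Mcm5 by 0.55, again with all 3 kept. LG/J was higher in Mcm6 by 1.13 (SE 0.192), in Mcm4 by 0.54 and in Pcna by 0.39. LP/J was lower in Mcm6 by -1.14 (SE 0.192), in Ccnd1 by -0.58 and in Tyms by -0.53. Of all strains, LG/J had the highest mean of smooth muscle Acta2 (12.87) and the lowest of adipocyte Ucp1 (12.50). CXB8/HiAJ had the lowest means of endothelial Kdr (6.71) and Tek (7.02). The part of tissue make-up in these calls was not tested. Mcm6 alone was called in 16 strains, 5 higher and 11 lower, and 10 of these were called without the 54 arrays. In the other 6 the differences stayed close to those before, at -0.60 after -0.61 in BXD36/TyJ, for example, and moved most in CXB13/HiAJ, from -0.68 to -0.59. Pcna was called in 10, 7 higher and 3 lower, of which 8 could be tested without the 54 arrays and 5 were called. The CXB strains had the lowest median Mcm6 of the 5 sets, 5.15 over strain means from 4.83 to 5.86, against 5.56 in BXD and 5.86 in AXB/BXA.

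The arrays highest in Mki67 fell into kinds that their other genes set apart. The highest was replicate 3 of C58/J at 7.27, with Top2a at 6.74, Cdk1 at 5.36 and Ube2c at 6.60. On it the oesophageal keratin genes Krt4 and Krt13 read 13.03 and 12.51, against medians of 2.60 each, and the basal keratin Krt5 read 9.59 against 3.16. Replicate 1 of AXB5/PgnJ, replicate 1 of SJL/J and replicate 2 of NOD/ShiLtJ followed at 6.19, 6.11 and 6.07, with epithelium list means of 9.16, 9.70 and 9.71. The skeletal muscle list means of these 4 arrays were 11.31, 11.92, 10.93 and 10.91, in the same order, against a median of 5.43 and a 95th percentile of 11.59. All 4 of the arrays highest in Mki67 were thus among the 23 high in epithelium, and so were 6 of the highest 10 and 11 of the highest 20. High epithelium did not always go with high Mki67: the 23 arrays ran from 2.83 to 7.27 in Mki67 with a median of 3.65, against 3.25 over all arrays.

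Other arrays high in Mki67 were not high in epithelium. Replicate 1 of AKR/J had Mki67 at 6.06 and Top2a at 5.28, an epithelium mean of 3.22, and a B cell list mean of 6.94 against a median of 4.21. Its B cell genes Cd79b and Ms4a1 read 9.70 and 9.40, and the T cell gene Cd3d 7.97, against medians of 5.81, 5.62 and 3.15. Replicate 1 of AXB19/PgnJ had Mki67 at 5.74 and Top2a at 5.73, with Rag1 at 7.41 and Dntt at 6.11, the recombination genes of immature lymphocytes, against medians of 2.68 and 2.43. Replicate 2 of BXD66/RwwJ had Mki67 at 5.77 and Top2a at 4.85, with an epithelium mean of 3.36, a T cell list mean of 4.02 against a median of 3.05 and a macrophage list mean of 7.06 against a median of 6.18. The part that cells of these other tissues played in the levels of the members was not tested. The difference between 3′ and 5′ control probe sets, a sign of RNA quality, ran from 0.40 to 1.52 over all arrays with a median of 0.80. On the 4 arrays highest in Mki67 it was 0.58 in C58/J, 0.75 in AXB5/PgnJ and 0.44 each in SJL/J and NOD/ShiLtJ, close to the lowest.

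**Figure D2:**
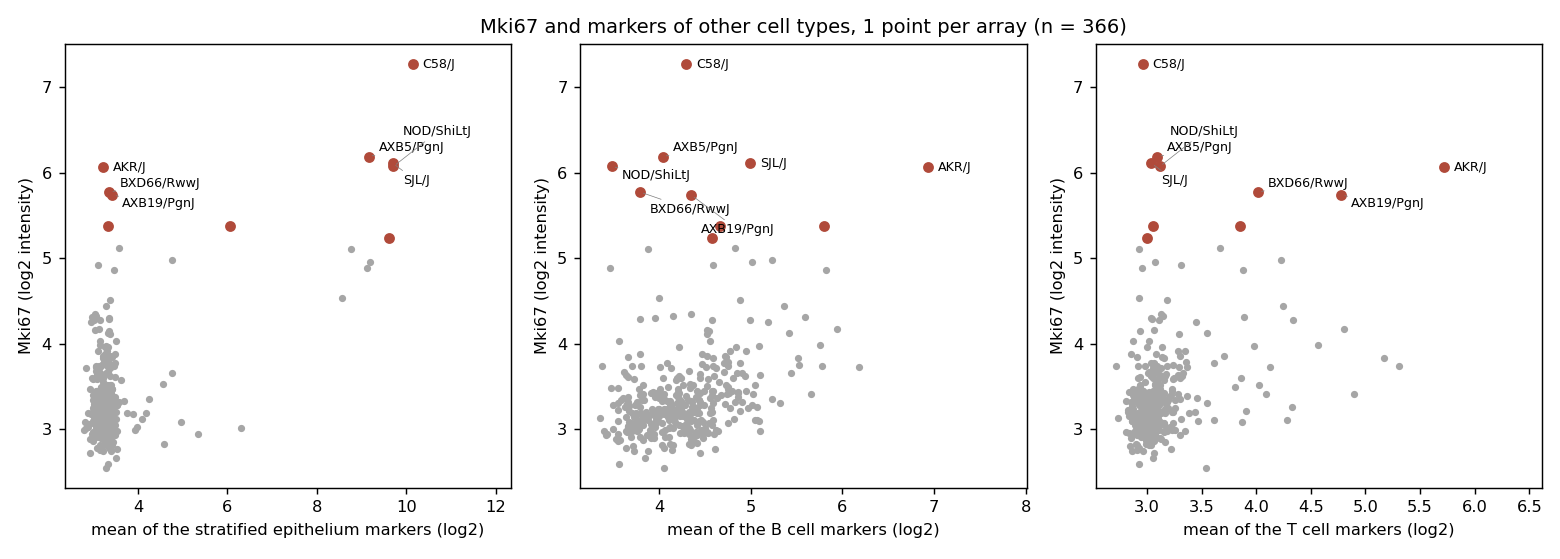
Mki67 (log2 intensity) of each of the 366 arrays against the mean level of the stratified epithelium, B cell and T cell lists, with the 10 arrays highest in Mki67 in red. The 4 highest, from 6.07 to 7.27, have epithelium means from 9.16 to 10.15, whereas the AKR/J array (6.06) has an epithelium mean of 3.22 and a B cell mean of 6.94.

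Whether the members moved together was asked in 2 ways, over strain means and over mice within strains. The mean of a few arrays also carries the spread between the mice of a strain, so these are not separate evidence. For Top2a the SD of strain means was 0.272 and the within-strain SD 0.466, and for Mki67 they were 0.381 and 0.569. How much of a relation over strain means came from that spread was not tested. Over the means of 101 strains, the biweight midcorrelation with Mki67, a correlation that gives outlying strains little weight, was positive and called for 21 of the 33 other members, against 8.44% of all probe sets. It was negative and called for none of the members, against 5.76%, and for none at an unadjusted p under 0.05 either. Its median was 0.34 over the members and -0.00493 over all probe sets. Within strains, the slope on Mki67 with strain as a factor was positive and called for 24 of 33 members, against 10.8%, and negative for none, against 11.5%, again with none at an unadjusted p under 0.05 (limma). The median partial correlation was 0.41 over the members and -0.03 over all probe sets. Genes of this kind are grouped because they are known to vary together, so the direction is no finding of its own.

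By midcorrelation Cdk1, Top2a and Ccna2 were closest to Mki67. Cdk1 had a midcorrelation of 0.77 (adjusted p = 3.64e-16) over strains, Top2a 0.74 (9.1e-15) and Ccna2, which encodes cyclin A2, 0.68 (2.78e-11). Within strains a rise of 1 in Mki67 went with a rise of 0.71 (SE 0.0254) in Top2a, 0.46 (SE 0.024) in Cdk1, 0.45 (SE 0.0224) in Ccna2 and 0.62 (SE 0.0339) in Ube2c on the log2 scale. The partial correlations were 0.86 for Top2a, 0.78 for Ccna2, 0.76 for Cdk1 and 0.74 for Ube2c. Rank correlations within strains, which give extreme arrays less weight, were lower, at 0.67, 0.56, 0.60 and 0.52 in the same order. Genes of the spindle and of mitotic exit had midcorrelations of 0.53 for Cdc20, 0.53 for Ccnb2, which encodes cyclin B2, 0.53 for the spindle protein gene Nusap1, 0.50 for Prc1, 0.50 for the survivin gene Birc5 and 0.49 for the centromere motor Cenpe. Cdca8, of the chromosomal passenger complex, had 0.35 and a slope of 0.241 (SE 0.019), and the Aurora kinase gene Aurka 0.28 and a slope of 0.197 (SE 0.0225). All of these were also called within strains.

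Pearson correlations over the 101 strains were again highest for Top2a, Cdk1 and Ccna2, among 33 relations computed. For Top2a, r was 0.84 and rho 0.76 (permutation p = 1e-05 for each, the smallest that 100000 permutations can give), and r was 0.79 without NOD/ShiLtJ and AXB5/PgnJ, the strains farthest from the median in Mki67. For Cdk1, r was 0.83, rho 0.77 and r without these strains 0.79. For Ccna2 they were 0.78, 0.66 and 0.75, and for Cdc20 0.73, 0.57 and 0.62, each with a permutation p of 1e-05. Pcna had r = 0.31 (permutation p = 0.0015), rho = 0.24 (0.016) and r = 0.24 without the farthest strains.

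Among the replication factors, Mcm5 had a midcorrelation of 0.58 (adjusted p = 1.79e-07), above those of the spindle and mitotic exit genes, and Mcm3 had 0.40, Mcm6 0.37, Mcm4 0.31 and Mcm2 0.30. All 5 were also called within strains. Pcna, Plk1 and Rrm2 were called only within strains, where their slopes were 0.083 (SE 0.0142), 0.078 (SE 0.0178) and 0.107 (SE 0.0189). Whether the 2 kinds of relation differ for them was not tested. Members called in neither numbered 9: Ccne1, E2f1, Mcm7, Aurkb, Bub1, the transcription factor Foxm1, Tyms, Cenpa and Kif11. Of these, Aurkb, Bub1, Foxm1, Kif11 and E2f1 had means at or below the olfactory receptor 95th percentile, but Mcm7, Tyms and Cenpa were well above it at 5.62, 5.46 and 5.51.

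**Figure D3:**
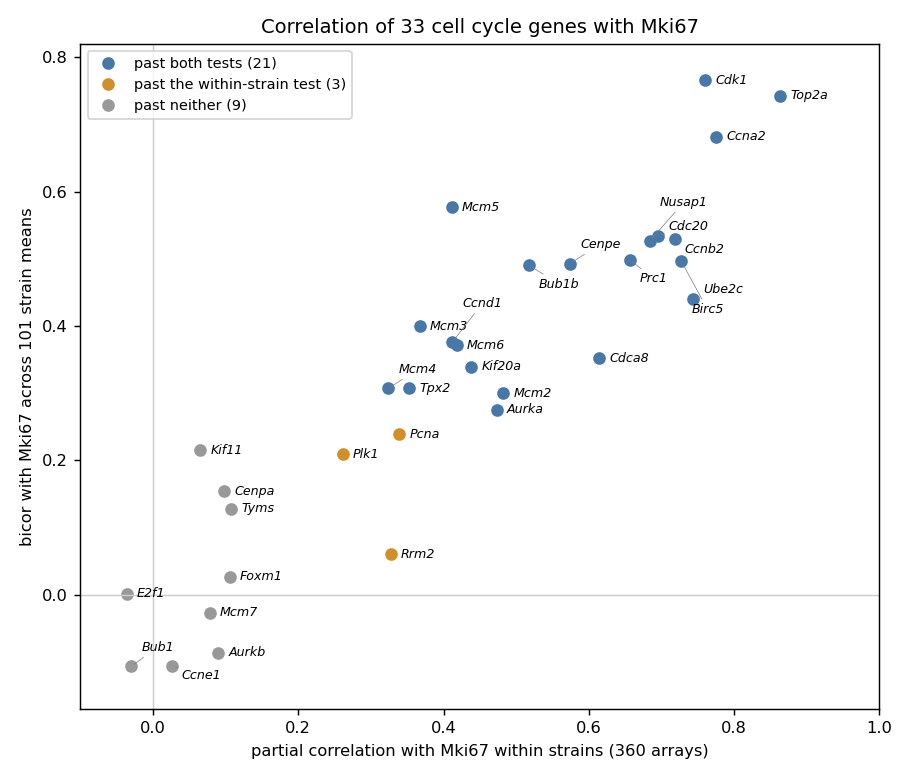
Relation of each member to Mki67, as the midcorrelation over the means of 101 strains (y axis) against the partial correlation over mice within strains (x axis). Top2a (0.74 and 0.86), Cdk1 (0.77 and 0.76) and Ccna2 (0.68 and 0.78) lie at the upper right, and Bub1 (-0.107 and -0.0302) and E2f1 (0.0012 and -0.0359) near the origin.

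Among all 561 pairs of members, r over strain means had a median of 0.20 and ran from -0.32 to 0.84, with 447 pairs above 0 and 72 above 0.5. Within strains the median was 0.19, and 483 pairs were above 0 and 65 above 0.5. The closest pairs were Mki67 with Top2a (0.84 over strains and 0.86 within), Mki67 with Cdk1 (0.83 and 0.76), Top2a with Cdk1 (0.79 and 0.73), Mki67 with Ccna2 (0.78 and 0.77) and Ccnb2 with Birc5 (0.77 and 0.65). The lowest was E2f1 with Mcm4 (-0.32 and -0.09). All pairs share the same arrays, so these are descriptions.

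**Figure D4:**
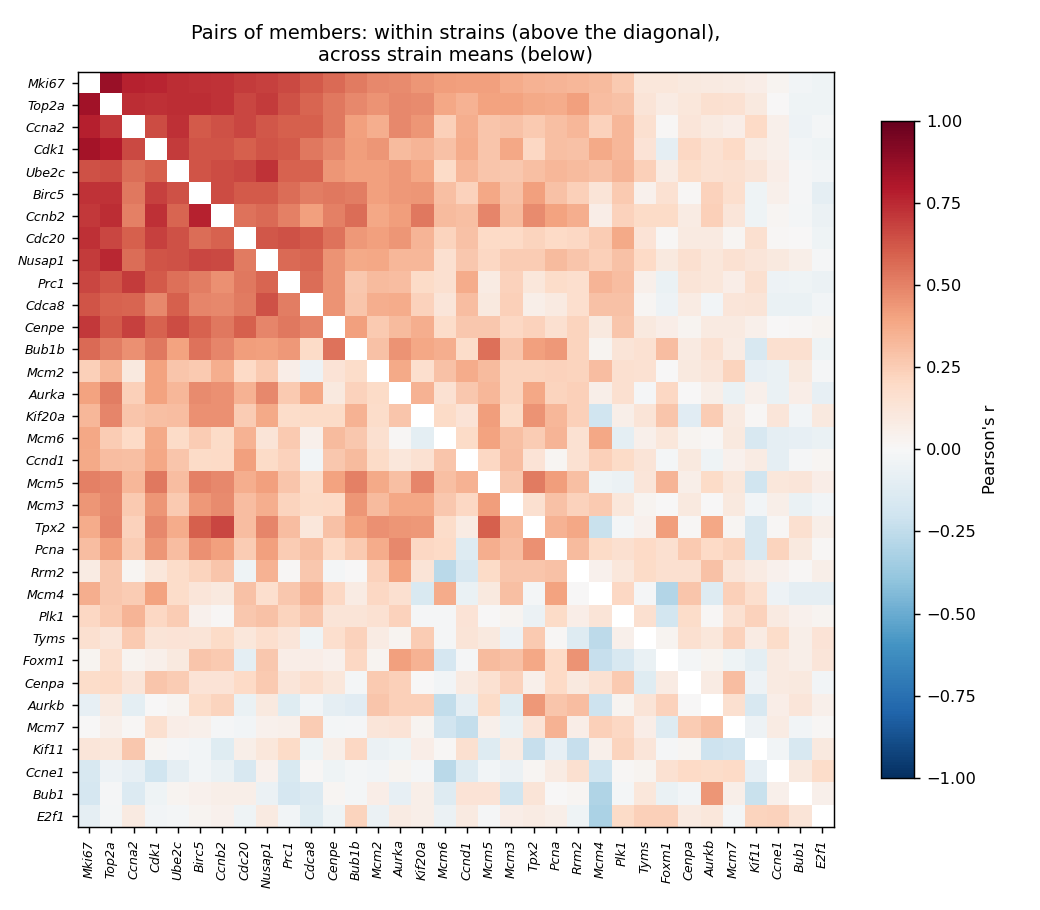
Pearson correlation of each pair of the 34 members over strain means (below the diagonal) and within strains (above it), as a colour scale. The mitotic members around Mki67, Top2a and Cdk1 form a block with r up to 0.84 over strains and 0.86 within, and Bub1, E2f1, Ccne1 and Foxm1 stay outside it.

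Leaving out the 54 arrays high in another tissue kept most of these relations. The midcorrelation was then called for 16 members, against 5.87% of all probe sets, and the slope for 23, against 3.67%. Cdk1 had 0.68 and a slope of 0.45 (SE 0.0346), and Top2a 0.66 and 0.66 (SE 0.0363). With the means of 6 marker lists as covariates the midcorrelation was called for 15 members, against 16.8% of all probe sets, and the slope for 20, against 1.56%. Without the 6 arrays highest in Mki67 they were called for 18, against 8.34%, and 23, against 7.49%. Within the BXD strains alone the midcorrelation was called for 5 members, against 1.01% of all probe sets, within AXB/BXA for 3, against 0.0244%, and within the classical inbred strains for 2, against 0.0933%. Top2a was called in each of the 3 (0.55, 0.83 and 0.78), and Cdk1 in BXD and AXB/BXA (0.68 and 0.86) but not in the classical inbred strains (0.64, adjusted p = 0.0529).

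The promoters of Cdk1, Top2a, Cdc20 and Mcm5 are shown. Of the members with an entry in the RefSeq promoter table, these had the highest midcorrelations with Mki67 over strains. Sequence elements known from cell cycle promoters were looked for in them. CCAAT boxes bind the factor NF-Y, TTTGAA is the core of the cell cycle homology region bound by the DREAM and MuvB complexes, and TTTCCCGC and TTTGGCGC are forms of the E2F site. Each sequence is the 250 bases before the start of the gene in RefSeq on GRCm38.p6, read 5′ to 3′ along the gene, and capitals mark the motifs on either strand.

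Cdk1 (chr10:69352913-69353162, - strand): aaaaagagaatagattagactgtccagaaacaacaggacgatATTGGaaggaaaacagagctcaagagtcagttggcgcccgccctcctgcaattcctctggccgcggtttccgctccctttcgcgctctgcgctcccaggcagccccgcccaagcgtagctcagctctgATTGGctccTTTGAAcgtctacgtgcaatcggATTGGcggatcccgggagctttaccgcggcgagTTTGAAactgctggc
Top2a (chr11:99024190-99024439, - strand): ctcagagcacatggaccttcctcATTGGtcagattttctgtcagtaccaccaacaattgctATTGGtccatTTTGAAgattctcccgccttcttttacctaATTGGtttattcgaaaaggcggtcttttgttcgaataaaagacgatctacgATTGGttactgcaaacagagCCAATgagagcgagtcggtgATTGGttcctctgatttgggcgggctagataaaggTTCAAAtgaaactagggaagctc
Cdc20 (chr4:118437344-118437593, - strand): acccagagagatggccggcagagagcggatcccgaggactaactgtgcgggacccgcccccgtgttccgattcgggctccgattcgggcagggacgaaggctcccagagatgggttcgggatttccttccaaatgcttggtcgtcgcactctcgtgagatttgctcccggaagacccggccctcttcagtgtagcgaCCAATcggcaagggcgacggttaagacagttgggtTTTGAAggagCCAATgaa
Mcm5 (chr8:75109259-75109508, + strand): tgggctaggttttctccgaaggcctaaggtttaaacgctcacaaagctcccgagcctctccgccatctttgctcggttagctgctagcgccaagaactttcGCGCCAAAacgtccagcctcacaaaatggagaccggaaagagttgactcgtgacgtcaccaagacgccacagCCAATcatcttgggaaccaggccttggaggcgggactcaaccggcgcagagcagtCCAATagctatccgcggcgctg

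The Cdk1 promoter held 3 CCAAT boxes and 2 TTTGAA elements, one of them 15 bases before the start. Top2a held 6 CCAAT boxes, from 227 to 58 bases before the start, and 2 TTTGAA elements, the nearer at 23 bases. Cdc20 held 2 CCAAT boxes on either side of a TTTGAA at 18 bases. Mcm5 held no TTTGAA but 1 E2F site at 149 bases and 2 CCAAT boxes at 77 and 22. No motif overlapped another in these 4 sequences. Over the 27 members matched in the RefSeq promoter table, CCAAT on either strand was present in 22 (81.5%), against 34.5% of all 27025 promoters of that length. TTTGAA was present in 8 (29.6%, against 16.3%), all of which also held CCAAT (5.73% of all promoters held both). An E2F form was present in 3, Mcm5, Mcm6 and Mcm7 (11.1%, against 1.35%). The members without an entry were Ccnd1, Mcm4, Ccna2, Aurkb, Kif20a, Tpx2 and Foxm1. A match of letters is no sign of binding in these aortas.

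Other genes of the same pathway, which are no members, were read from lists by role. Over all probe sets, the midcorrelation with Mki67 was called positive for 8.44% and negative for 5.76%. The slope within strains was called positive for 10.8% and negative for 11.5%. The counts of called genes here and in the cell type lists below are to be read beside these shares. Of 42 other mitotic genes, 19 had a positive and 1 a negative midcorrelation with Mki67, and 34 had a positive slope within strains and none a negative one. The highest of them in level, the securin gene Pttg1 at 11.11, had 91.9% of its variance between strains and was called in neither relation (-0.17, adjusted p = 0.231 and slope -0.01, adjusted p = 0.387). Bub3, of the spindle checkpoint, at 8.25, was called within strains only (slope 0.03, SE 0.0118, adjusted p = 0.0294). The kinase partner Cks1b, at 6.99, had a midcorrelation of 0.26 (adjusted p = 0.0562) and a slope of 0.20 (SE 0.024, adjusted p = 2.49e-13). Of 27 other replication genes, 9 were positive and 1 negative over strains, and 14 positive and 2 negative within. Gmnn, which encodes the licensing inhibitor geminin, was negative in both (-0.29, adjusted p = 0.0315 and slope -0.10, SE 0.0264, adjusted p = 0.00227). Rrm1, the partner of Rrm2, was called within strains only (slope 0.07, SE 0.017). Slbp, which encodes the histone mRNA binding protein, at 8.10, was called in neither. Of 21 other G1 genes, 5 were positive over strains and 6 within. Of the 3 highest in level, Tfdp1, the E2F partner, was called within strains only (slope 0.07, SE 0.0217), and Rb1 and Ccnd2 in neither. Of 7 inhibitors of cyclin-dependent kinases, Cdkn1b was positive in both (0.33 and slope 0.07), Cdkn1a positive within strains (slope 0.16, SE 0.0569), and Cdkn2c and Cdkn1c negative within strains (slopes of -0.12 each).

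Among markers of cell types, those of macrophages and B cells went with Mki67 over strains. Of 12 macrophage genes 10 were positive, with Lyz2 at 0.52 (adjusted p = 5.18e-06), C1qa at 0.48 and C1qc at 0.45, and 9 were positive within strains. All 7 B cell genes were positive in both, with Cd22 at 0.45, Ighm at 0.45, Ms4a1 at 0.43, Fcrla at 0.38, Cd79b at 0.36, Blk at 0.35 and Cd79a at 0.33 over strains. The macrophage list mean ran from 5.40 to 7.30 over the arrays and the B cell list mean from 3.35 to 6.94. With 6 marker list means as covariates, 8 macrophage genes and no B cell gene were called positive over strains, against 16.8% of all probe sets. The B cell list, built from these same genes, was 1 of the 6, and the macrophage list was not. In that setting 6 of the 8 fibroblast genes were called positive over strains, against 2 without covariates. Lgals3, a marker of foam cells, had 0.36 over strains and a slope of 0.46 (SE 0.0473, adjusted p = 1.52e-17), and Cd5l, which encodes a secreted protein of macrophages, had 0.28 and a slope of 0.47 (SE 0.0966), while the other 4 foam cell genes, Ctsd among them, were called in neither test. T cell genes were positive in 2 of 6 over strains, Cd3g (0.38) and Cd3d (0.31), and in 5 of 6 within, which were these with Cd247, Cd8a and Cd3e (slopes of 0.14, 0.16 and 0.12).

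The 8 stratified epithelium genes were called mostly within strains. All 8 had positive slopes within strains, from 0.27 (SE 0.0291) for Trp63 to 1.39 (SE 0.165) for Krt4, with Dsp, Krt14, Sprr1a and Krt15 at 0.69, 0.85, 1.01 and 1.11 between them, and 1 of 8, Trp63, was called over strains (0.30, adjusted p = 0.0237). Without the 54 arrays high in another tissue, none of the 8 was called in either. Of those arrays, 23 were left out because these same 8 genes were high. That choice cut the range of these genes, so nothing is concluded from the loss. None of the 8 smooth muscle genes was called over strains, and 1, Des, was called within strains (slope 0.28, SE 0.105). None of the 8 endothelial genes was called over strains, and Tek, Vwf and Erg were negative within. No hepatocyte, skeletal muscle or erythroid gene was called in either (at an unadjusted p under 0.05, 1 skeletal muscle gene was positive within strains), and 4 of 6 adipocyte genes, among them Retn, Adipoq and Cidea, were negative within strains (slopes of -0.12, -0.08 and -0.04). Of the 8 fibroblast genes 2, Lum and Col1a1, were positive over strains (0.33 and 0.32), and 1, Dpt, was positive within (slope 0.09, SE 0.0296, adjusted p = 0.0128). Of 10 granulocyte genes none was called over strains (2 positive at an unadjusted p under 0.05) and 3 were positive within, S100a9 among them (slope 0.46, SE 0.0705), and of 7 germinal centre and thymocyte genes 1, S1pr2, was positive over strains (0.38) and 2, S1pr2 and Dntt, within (slopes of 0.08 and 0.07).

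The genes most like Mki67 over strains, members aside, were Slc16a6 (0.69), Cenpf (0.68), Ptprc (0.67), Cd44, Cd83 and Irf8 (0.66 each), Smc2 and Lcp1 (0.65 each), and Lsp1 and Arrb2 (0.64 each). Cenpf, by another probe set than its highest, and Smc2 are mitotic genes, and Ptprc, Irf8, Lcp1 and Lsp1 are expressed mainly in leukocytes. Within strains they were Hmgb2 (partial correlation 0.80), Aspm (0.72), Pclaf (0.71), Ckap2 (0.70), Cenpf, Pycard and Arhgap11a (0.69 each), Cd44 (0.68), Rassf5 (0.67) and Cep55 (0.66). Of these, Aspm, Ckap2, Cenpf and Cep55 are genes of the spindle, centromere or midbody, and Hmgb2 and Pclaf are bound to chromatin and to PCNA. The lowest within strains were Ndufb9 (-0.58), Ndufv3 (-0.49), Cox4i1, Atp5k (-0.48 each) and Ndufb11 (-0.47), all of them subunits of mitochondrial respiratory complexes. The likenesses over strains share 101 strains, and those within strains the 360 arrays of strains with at least 2.

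Mcm6, the member that differed most between strains, was also used as an index, a choice made after its values were seen. Its midcorrelation was positive and called for 10 of the 33 other members, against 23.5% of all probe sets, and negative for 3, against 26.1%. Mcm4 was the closest member (0.40, adjusted p = 0.000225), followed by Mki67 and Cdc20 (0.37 each) and Cdk1 (0.36), and Rrm2, Aurkb (-0.27 each) and Ccne1 (-0.24) were negative. The closest genes of all were no cell cycle genes: Elovl1, a fatty acid elongase (0.73), Atp8b2 (0.68) and Prkcd, a protein kinase C (0.67). The lowest were Clpp (-0.69), Mrps21 (-0.68), Pam16 and Mrpl13 (-0.67 each), all of mitochondria.

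The recombinant inbred sets share C57BL/6J as a progenitor, so the F1 mice of DBA/2J, C3H/HeJ, BALB/cJ and A/J were each set against the C57BL/6J mice, whose parents are both C57BL/6J. The 4 contrasts share the same 6 C57BL/6J arrays. Bub1b was the only member called, in A/J (4.90% of all probe sets called), BALB/cJ (6.23%) and C3H/HeJ (8.87%), and no member was called in DBA/2J (3.65%), where 1 was higher and 1 lower at an unadjusted p under 0.05 (limma). In C57BL/6J, Bub1b read 3.95, 3.88, 3.21, 3.24, 3.54 and 3.69, with a mean of 3.58 ± 0.316 (SD, n = 6). It read 2.99, 3.06 and 2.65 in A/J, with no overlap, a difference of -0.68 (SE 0.17, limma adjusted p = 0.00464). An exact two-sided permutation test of A/J against C57BL/6J gave p = 0.0238, where the smallest possible is 0.0119.

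In BALB/cJ it read 3.04, 2.80, 2.56 and 3.03, again below every C57BL/6J array, a difference of -0.73 (SE 0.155, adjusted p = 0.00051, exact permutation p = 0.00952). The 8 C3H/HeJ arrays ran from 3.03 to 3.35 and overlapped the lowest C57BL/6J arrays, with a difference of -0.44 (SE 0.13, adjusted p = 0.0165, exact permutation p = 0.00333). The 5 DBA/2J arrays ran from 3.06 to 3.28, with a difference of -0.44 (SE 0.146) that was not called (adjusted p = 0.068, exact permutation p = 0.0195). Without A/J replicate 3 the A/J call was lost, and without C57BL/6J replicate 1 or 2 the C3H/HeJ call was lost. Of the arrays high in another tissue, 1 was of C57BL/6J and 2 were of DBA/2J, all 3 high in the hepatocyte list. Without them Bub1b was called in A/J (-0.61, adjusted p = 0.0144, with 4.16% of all probe sets called) and in BALB/cJ (-0.65, adjusted p = 0.00226, with 5.42%), where Mcm2 was called too. It was not called in C3H/HeJ (-0.36, adjusted p = 0.0753, with 6.40%) or DBA/2J (-0.34, adjusted p = 0.42, with 1.83%), and no other member was. A second Bub1b probe set gave -0.43, -0.47, -0.49 and -0.38 in the 4 strains, called in BALB/cJ and C3H/HeJ (adjusted p = 0.0162 and 0.0011). The third, near the floor with a mean of 2.35 in C57BL/6J, gave 0.11, 0.13, 0.05 and 0.17, none called. By the highest probe set the A/J and BALB/cJ means, 2.90 and 2.86, also lay below the olfactory receptor 95th percentile of 3.05. Over all arrays that probe set correlated weakly with the other Bub1b probe sets, from 0.0457 to 0.249. Of all 34 members, 29 were lower than in C57BL/6J in A/J, 23 in BALB/cJ, 22 in C3H/HeJ and 18 in DBA/2J, with medians of -0.18, -0.17, -0.03 and -0.01, where 53.3%, 55.6%, 55.0% and 51.1% of all probe sets were lower.

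**Figure D5:**
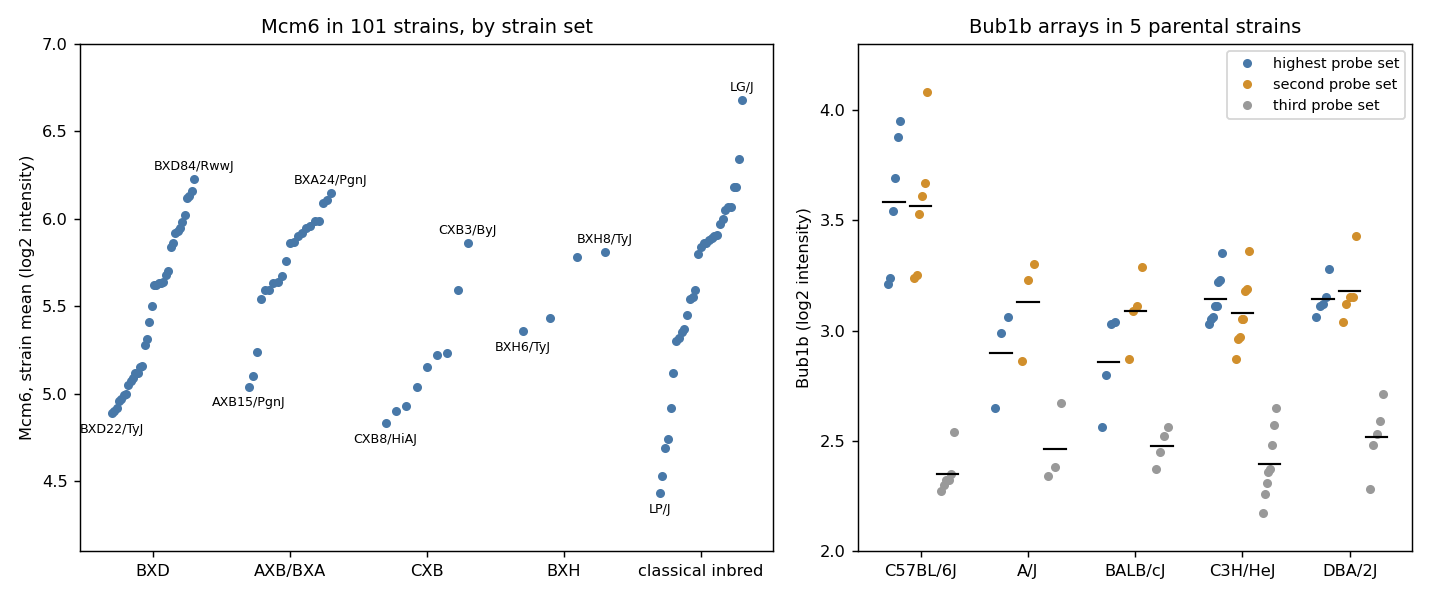
Mcm6 strain means by strain set (left) and the arrays of 5 progenitor strains for 3 Bub1b probe sets, with their means as lines (right), in log2 intensity. Mcm6 strain means run from 4.43 in LP/J to 6.68 in LG/J, and by the highest Bub1b probe set every A/J and BALB/cJ array lies below the lowest C57BL/6J array (3.21).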

How the data were processed

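The deposited table held log2 expression values of 45141 probe sets on 366 arrays, which the authors normalized by RMA from Affymetrix HT-MG_430 PM arrays; the labels name the array HT_MG-430A and, per the labels, GCOS and RMA were used, with versions not given in the sources used here. No further normalization was applied. 104 control probe sets were left out. GEO's platform annotation gave 28898 of the 45037 probe sets 1 symbol, 551 several and 15588 none. The main limma tests and the midcorrelations were run over all probe sets with Benjamini-Hochberg adjustment at 0.05. The permutation tests covered members only, and their p-values were not adjusted.

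Strain F tests, strain deviations, progenitor contrasts and within-strain slopes were fitted in limma 3.58.1 (R 4.3.3) with strain as a factor. Strain deviations were adjusted over all probe sets and strains together. The share of variance between strains was the intraclass correlation, which can be below 0. The biweight midcorrelation (constant 9) was computed on strain means in Python 3.11.15 with numpy 2.4.6, and permutation tests with scipy 1.17.1. The scripts were tested on simulated data. Arrays were left out for a list whose mean lay over 5 median absolute deviations above its median.

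The members and lists were chosen with earlier results of these data known. Genes named are every member, the 10 most like Mki67 over and within strains, and, from the other lists, the 3 highest in level and any called gene of a list of 8 or fewer, except that most genes called in neither relation are only counted. Strains named are those highest and lowest in Mki67 or with the most calls. Genes lowest in the relation to Mki67, and those closest to Mcm6, were named after their values were seen, as were the other strains and arrays. The number of arrays limits the precision. Strains with 1 array (6 of 101) entered only the correlations over strain means. Nothing says that arrays of a strain came from separate litters, so p-values measure the spread between these arrays. Alternatives were array weights, other probe sets, filters on low level, other correlations, strain sets, marker lists as covariates and arrays left out.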

Additional observations from a re-analysis of the deposited data

Results flagged for a closer look

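Of 22 strain and gene groups of 4 to 10 arrays, 3 had an array that stood apart. For groups picked without regard to their values, chance gives about 1 in 20. The strains here were picked for their Mki67 level, for their calls or as progenitors, so that rate does not apply to them. In CXB8/HiAJ, replicate 2 had Mki67 at 5.12, with the next array at 3.12. In BXA7/PgnJ, replicate 4 had Mki67 at 4.98, with the next at 3.78. In C58/J, replicate 3 had Top2a at 6.74, with the next at 3.31. The epithelium list means of these arrays were 3.57, 4.76 and 10.15, their B cell list means 4.82, 5.23 and 4.29, and their T cell list means 3.67, 4.23 and 2.96, against medians of 3.26, 4.21 and 3.05 over all arrays. The part of such cells in these values was not tested.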

How the results depend on the processing

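No paired analysis was possible because the labels carry no replicate number shared between strains, and the numbers used here only name arrays. Across all alternatives the direction changed for 2 members over strains, Mcm2 (-0.04 with 6 marker scores as covariates) and Mcm4 (-0.00 within BXD strains). The members passing the strain F test were 22, 12 when only probe sets above the median level were tested (by construction the 12 such members), 8 with the second-highest probe set of each gene (of 21 that have one, 11 of which were called by the highest), and 12 to 19 without replicate 1, 2, 3 or 4 in turn. The median share of variance was 10.6% and ran from 8.18% to 13.8% in these fits. Called strain deviations were 86, 156 with array weights and 48 without arrays high in another tissue. Members called against C57BL/6J were 0 to 1 in A/J, 1 to 2 in BALB/cJ, 0 to 1 in C3H/HeJ and 0 to 1 in DBA/2J when 1 array was left out. The DBA/2J call of Bub1b appeared without C57BL/6J replicate 3 or 4. With array weights the counts were 2 in BALB/cJ, 0 in C3H/HeJ and 2 in DBA/2J, above the median level 3 in BALB/cJ and 1 in DBA/2J, with only the 5 progenitor strains 1 in DBA/2J, and without arrays high in another tissue, an alternative added after seeing the data, 2 in BALB/cJ and 0 in C3H/HeJ.

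Over strains, 21 members were called with Mki67, 5 within BXD, 3 within AXB/BXA and 2 within classical inbred strains, where fewer strains enter, and 6 above the median level. Within strains, 24 were called, 7 above the median level and 23 to 24 without 1 replicate number. For other mitotic genes the counts over strains were 19, 2, 0 and 3 in the 3 strain sets and 7 above the median level, and within strains 34, 10 above the median level and 28 to 32 without 1 replicate number. For macrophage genes they were 10 over strains and 3, 0 and 0 in the strain sets, and 9 within strains, 2 to 9 without 1 replicate number, the 2 being without replicate 2. For B cell genes they were 7 over strains, 3 by Pearson's r, 0 in each strain set, 4 above the median level and 0 with 6 marker scores, and 7 within strains, 4 above the median level, 1 with 6 marker scores and 5 to 7 without 1 replicate number. For stratified epithelium genes they were 1 over strains, 8 by Pearson's r and 0 with strains of at least 3 arrays, the median per strain, each strain set, Top2a in place of Mki67, above the median level, 6 marker scores, or without arrays high in another tissue, and 8 within strains, 2 above the median level, 2 with 6 marker scores, 8 without any 1 replicate number and 0 without arrays high in another tissue. Leaving out arrays high in another tissue removed those high in these same epithelium genes, so their count of 0 there was bound to that choice. Where no cause is given, it was not tested.

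Most mitotic members lie near the olfactory receptor level, where changes are compressed, so a member not called may have changed by an amount the array could not show. Different probe sets of a gene gave correlations over arrays between -0.0661 and 0.379 for Top2a, from 0.0457 to 0.249 for Bub1b and from -0.196 to 0.0742 for Foxm1, of -0.0359 for Mcm5 and -0.0273 for Nusap1, and of 0.69 for Ccna2 and 0.77 to 0.85 for Ccnd1.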

Other observations

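The strains lowest in mean Mki67 were CXB11/HiAJ at 2.82 (1 array), BXD18/TyJ at 2.91 (arrays of 2.59 and 3.23), and LP/J, KK/HlJ and BXD1/TyJ at 2.96 each. The highest were NOD/ShiLtJ at 5.18, AXB5/PgnJ at 4.66, BXA25/PgnJ at 4.28 (1 array), C58/J at 4.26 and BXD66/RwwJ at 4.24, where arrays read 3.25, 5.77 and 3.68. The genes lowest against Mki67 over strains were Samm50 (-0.51), Uhrf1bp1 (-0.50), Fastkd1, Mmut and Hoxa7 (-0.49 each), of which Samm50, Fastkd1 and Mmut encode mitochondrial proteins.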
